A study of Mus musculus with 18 samples.

Results

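The comparison described here set FOXS1 KO clone 1 against FOXS1 KO clone 2 in the uninduced state, with 3 libraries of each clone and thus 6 of the 18 libraries sequenced. Both clones carried the same nominal genotype, and both derived from 10T1/2 cells (labelled CH310T1/2), a multipotent mouse fibroblast line. Members were chosen by genotype, clone and treatment alone, every gene entered, and a positive difference means higher in clone 1. In both clones the *Foxs1* gene had been targeted with CRISPR-Cas9, by co-transfecting pairs of guide RNAs, selecting in puromycin and expanding single cells, and the study's methods report that loss of the protein was checked by western blot. Uninduced cells (labelled Control) had received neither TGF-β1 nor inducers, all cells having first been cultured to 2 days past confluence. Uninduced WT cells served as reference levels. The stimulated libraries of both clones, which had received TGF-β1 at 1 nM over 12 h before 48 h in DMII (an adipogenic mix of insulin, indomethacin, dexamethasone and a methylxanthine), served as a second set in which to look at the same difference. Each clone is 1 clone, and nothing in the labels says that its 3 libraries came from separate cultures, so p-values measure only the spread between libraries of a clone and not the spread between clones.

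FOXS1 is a forkhead transcription factor. A knockout clone is grown from 1 edited cell, so that every heritable property of that cell, edited or not, is passed to the whole culture. Several clones of 1 genotype are therefore usually set beside WT. 10T1/2 cells can be driven towards fat, cartilage, bone and muscle, and in the resting state make a fibroblast matrix rich in fibrillar collagens.

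*Foxs1* itself (ENSMUSG00000074676, chr2:152931898-152933208, GRCm38) was present in both clones. Its level, as CPM (counts scaled to the size of the library, after TMM scaling), was 26.7, 27.1 and 23.4 in clone 1 and 21.1, 22.9 and 23.9 in clone 2. The libraries of the clones overlapped, with a log2 fold change of 0.19 (SE 0.12) and an adjusted p of 0.203 by edgeR's quasi-likelihood test over all tested genes, which is the test behind every adjusted p given here. The WT mean was 2.23 CPM (SD 0.886, n = 3), so that the transcript was not lower in either clone than in WT and the counts could not be used to check the genotype label, since an edit need not lower the amount of RNA. Of the 4 tested genes within 100 kb of *Foxs1*, *Mylk2*, a muscle myosin light chain kinase, was lower in clone 1, with 0.307, 0.483 and 0.104 CPM against 2.28, 2.75 and 1.33 (log2 fold change −2.83, SE 0.49, adjusted p = 2.41e-05). *Tpx2*, a spindle assembly factor, differed by −0.62 (adjusted p = 1.44e-06), *Dusp15*, a phosphatase, by 0.66 (adjusted p = 0.0159) and *Pdrg1* by −0.16 (adjusted p = 0.0352), all inside the 2-fold limit.

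Depth was 16919612 to 17812503 counts in clone 1 and 15922953 to 42005596 in clone 2, whose replicate 1 was the deepest. Replicates of a clone correlated at r = 0.987 to 0.993 across genes (log2 CPM, genes not being independent), and libraries of different clones at 0.952 to 0.959. The cells are labelled mesenchymal stem cells, and their fibroblast markers summed to 35616 to 36619 CPM in clone 1 and 38171 to 39383 CPM in clone 2, 3 of the 16 tested being differentially expressed (*Thy1*, near 0 in clone 2, *Eng* and *Lum*). For markers of other cell types, CPM sums cover only the members that passed the expression filter. In any of the 6 libraries, 1 epithelial gene of 11 reached at most 3.23 CPM and 1 muscle gene of 12 at most 0.512 CPM. The 2 tested immune genes of 9 summed to at most 6.92 CPM. Over all members, tested or not, clones 1 and 2 held 107 and 274 epithelial, 37 and 89 muscle and 374 and 524 immune counts. The 3 tested endothelial genes of 9 summed to 31.0 to 32.0 CPM in clone 1 and 28.4 to 30.7 CPM in clone 2. The 6 tested neural or glial genes of 12 summed to 22.3 to 27.6 CPM and 42.8 to 52.4 CPM. The part of these markers in the results was not tested. 1 library stood apart. Replicate 3 of clone 1 held 3028 counts over 20 liver genes, 0.0171% of its total, with 1074 counts of *Alb* (albumin) and 774 of *Apoe*, against at most 25 counts over the 20 genes in any other library of the series. Of the genes higher in clone 1, 6 were more than 5 times as high in this library as in either other clone 1 library (*Serpina3k*, *Ephx2*, *Apoe*, *Alb*, *Ppp1r3b* and *Gm14391*), and all 6 calls were lost without it.

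The clones differed at many genes. Of 14317 genes tested, 1241 (8.67%) were differentially expressed genes (DEGs, adjusted p below 0.05 and more than 2-fold), 700 (4.89%) higher and 541 (3.78%) lower in clone 1. The median log2 fold change over all tested genes was 0.00418 and the median absolute value was 0.28, against 1.87 among DEGs, and 321 DEGs exceeded an absolute log2 fold change of 3. Without the fold limit, 6039 genes (42.2%) passed the adjusted p. The libraries of the clones did not overlap at 7953 genes (55.5%) and at 1206 of the 1241 DEGs. DEGs were often of low level, since 19.3% of them were under 1 CPM in both clones (13.7% of tested genes), and 546 reached a mean of 5 CPM in the higher clone. Without the library with liver counts 1043 of the 1241 DEGs kept their call, and 1054 to 1102 kept it without any other 1 of the 6 libraries.

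Some genes were close to silent in 1 clone and readily counted in the other. At most 3 counts over the 3 libraries of a clone, with a mean of at least 1 CPM in the other clone, were found for 72 genes (0.503% of those tested), 26 of them near silent in clone 1 (0.182%) and 46 in clone 2 (0.321%). No count at all was seen for 12 of the 26 and 29 of the 46. These genes lay on 19 chromosomes, 70 of the 72 were protein coding, and 6 encoded transcription factors: *Maf*, *Gm13212* and *Lhx9* near silent in clone 1, and *Hoxc13*, *Zfp105* and *Foxp2* in clone 2 (*Lhx9*, *Hoxc13*, *Zfp105* and *Foxp2* are named here after their values were seen).

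The near silent genes of clone 1 were led by *Marcksl1*, an actin-binding relative of the protein kinase C substrate MARCKS (chr4:129513581-129515985). Its level was 0.0512, 0 and 0 CPM in clone 1 and 50.5, 49.8 and 50.6 CPM in clone 2. The 1 count against 4264 gave a ratio of 2890 between clone 2 and clone 1 (95% interval 519 to 114000, exact, covering counting error only), and the WT mean was 146 CPM. *Ndn*, which encodes the imprinted growth suppressor necdin (chr7:62346569-62350262), had no count in clone 1 and 29.6, 33.3 and 29.9 CPM in clone 2, at least 592-fold higher against a floor of 3 counts over the clone 1 group. The same was found for *Maf*, a basic leucine zipper transcription factor (0, 0 and 0 against 30.1, 26.8 and 25.3 CPM, at least 525-fold), and *Lrp3*, a member of the low-density lipoprotein receptor family (at least 310-fold). *Fzd9*, a Wnt receptor, had 1 count against 1191, a ratio of 808 (145 to 31900). *Dtd1*, a D-aminoacyl-tRNA deacylase, had 1 count in clone 1, and *Gm13212* and *Gm5878* had none. *Nid1* and *Scrn1* had more counts in clone 1 but differed as widely. *Nid1*, encoding the basement membrane linker nidogen 1 (chr13:13437551-13512269), was at 0.154, 0.107 and 0.414 CPM in clone 1 and at 121, 116 and 118 CPM in clone 2 (log2 fold change −9.00, SE 0.14, adjusted p = 3.24e-27). Its libraries did not overlap between the clones, as the choice of the largest falls required. *Scrn1* (secernin 1) differed by −8.23 (adjusted p = 6.76e-22).

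In the other direction, *Plxdc2*, a plexin domain membrane protein (chr2:16356304-16755839), was at 126, 123 and 123 CPM in clone 1 and at 0.0446, 0 and 0 CPM in clone 2. That was 7147 counts against 2, a ratio of 5270 (1460 to 43500). *Epb41l3*, a membrane skeleton protein (chr17:69075683-69289989), had 31.8, 29.7 and 29.9 CPM in clone 1 and no count in clone 2, at least 860-fold, with a WT mean of 30.6 CPM. *Hgf*, hepatocyte growth factor, was at 10.8, 11.5 and 11.3 CPM in clone 1 and without a count in clone 2 (at least 317-fold), beside a WT mean of 91.0 CPM. *Mgmt*, the O6-methylguanine DNA repair enzyme (at least 303-fold), *Casd1*, a sialic acid acetyltransferase (at least 257-fold), *Ptprz1*, a receptor tyrosine phosphatase (at least 229-fold), and *Kcnj2*, an inward rectifier potassium channel (at least 220-fold), likewise had no count in clone 2. *Gpr149*, an orphan receptor (14.7, 19.1 and 18.5 CPM), *St8sia4*, a polysialyltransferase (17.1, 14.8 and 15.4 CPM), and *Ccdc85a* (12.1, 12.0 and 13.2 CPM) had no count in clone 2 and none in WT, so that clone 1 was the only uninduced group with a count of these 3 genes. WT cells had at least 1 CPM of 19 of the 26 genes near silent in clone 1 and of 22 of the 46 near silent in clone 2, and at most 3 counts of 4 and 16. *Serpina3k*, among the 46, rested on the library with liver counts.

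**Figure D1:**
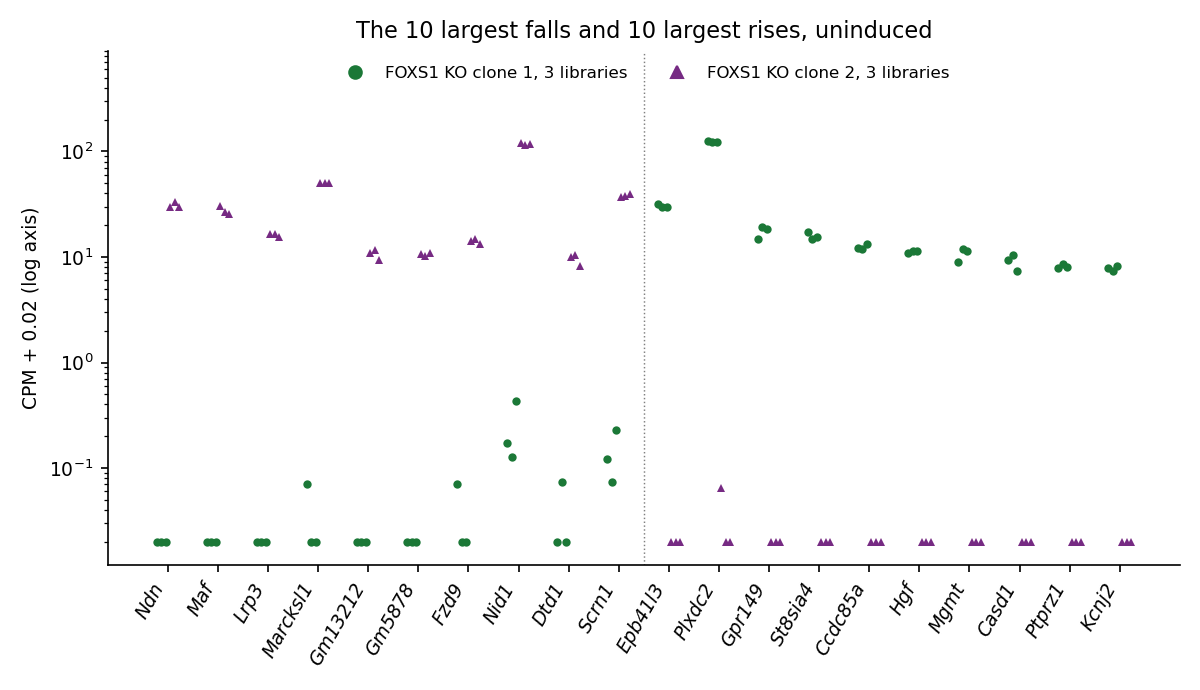
Level of the 10 genes with the largest falls (left) and the 10 with the largest rises (right) in clone 1 relative to clone 2, uninduced, as CPM + 0.02 on a log axis. They were taken among DEGs with a mean of at least 5 CPM in the higher clone and no overlap between the clones. Each point is 1 library, circles for FOXS1 KO clone 1 and triangles for FOXS1 KO clone 2, and points at the lowest position have no count. For each of the 20 genes the 3 libraries of 1 clone lie above all 3 of the other, as that choice required. *Plxdc2* at 123 to 126 CPM and *Nid1* at 116 to 121 CPM are at the top.

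Gene lists were described by the number of DEGs among their tested members, set against 4.89% higher and 3.78% lower over all tested genes. Genes of the interferon response, which are switched on by interferons through STAT and IRF factors and act in antiviral defence and antigen presentation, were mostly higher in clone 1. Of the 49 tested, 17 were higher and 2 lower, 43 had a positive difference, and the median log2 fold change was 0.793. Their summed level was 1798 to 2028 CPM in clone 1 and 1424 to 1443 CPM in clone 2. The count of higher genes was 15 to 18 with a library left out. Chromosome 17, which carries the major histocompatibility genes, was higher in clone 1 as a whole, and without its genes 13 of 40 were higher and 1 lower (median 0.815).

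*Isg15*, a ubiquitin-like antiviral modifier, was at 8.45, 5.36 and 9.58 CPM in clone 1 and at 0.245, 0.310 and 0.174 CPM in clone 2, with no overlap (log2 fold change 4.95, SE 0.41, adjusted p = 2.71e-11). *H2-T23*, a nonclassical class I molecule, was at 55.4, 54.3 and 53.3 CPM against 10.9, 11.6 and 13.3 CPM (log2 fold change 2.20, SE 0.12, adjusted p = 5.57e-15). *Ifit1*, which binds viral RNA, was at 19.2, 17.2 and 29.7 CPM against 5.577, 6.155 and 6.203 CPM (1.89, adjusted p = 4.82e-09). All 3 genes had the higher level in every clone 1 library. *Iigp1*, an interferon-induced GTPase, differed by 2.66 (adjusted p = 2.78e-06) and *H2-Q4*, a further class I gene, by 2.79 (adjusted p = 4.02e-06). Class I genes are near copies of each other, and 19.1% of the exonic bases of *H2-Q4* lie under another gene, so its value is uncertain. The antigen peptide transporter gene *Tap1* (1.40) and *Ifih1*, an RNA sensor with 182 counts in clone 1 and none in clone 2, were also higher. The signal transducer *Stat2* (−1.15) and the proteasome subunit gene *Psmb8* (−2.94, under 1 CPM in both clones) were the 2 lower members.

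The element GAAANNGAAA, the core of the interferon-stimulated response element, was searched on both strands in the 250 bases before each gene start in RefSeq (GRCm38.p6), and 974 of 32817 such windows (2.97%) hold it. A window was to be had for 12 of the 17 higher genes, and 5 hold the element (*Gbp5*, *H2-T23*, *Ifit1*, *Irgm2* and *Isg15*). Of the 49 tested genes 35 have a window, and 16 of these 35 hold the element. It was thus also found before members of the list that were not higher in clone 1, and the shares were not tested. The windows of *Isg15* (chr4:156200819-156201068, minus strand, 3 overlapping matches) and *Ifit1* (chr19:34640639-34640888, plus strand, 2 matches) are shown, 5′ to 3′, because these members differed in the same direction and hold more than 1 match each. The RefSeq start of *Ifit1* lies 18 bases from the start in the deposited table. Capitals mark the matches, read on either strand, which are a description of the letters and not of factor binding.
Isg15: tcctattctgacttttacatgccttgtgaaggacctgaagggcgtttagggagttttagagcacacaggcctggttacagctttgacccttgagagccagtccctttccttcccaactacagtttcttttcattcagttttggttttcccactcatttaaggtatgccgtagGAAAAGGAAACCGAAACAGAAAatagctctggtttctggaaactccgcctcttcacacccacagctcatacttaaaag
Ifit1: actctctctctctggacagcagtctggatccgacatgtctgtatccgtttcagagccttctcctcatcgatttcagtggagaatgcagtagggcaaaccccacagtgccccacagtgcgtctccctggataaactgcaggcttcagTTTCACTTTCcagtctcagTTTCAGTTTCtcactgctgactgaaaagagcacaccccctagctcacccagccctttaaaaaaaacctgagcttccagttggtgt

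Chemokine and cytokine genes, whose products attract and activate leukocytes, held 14 higher and 0 lower of 47 tested (12 to 15 higher with a library left out, and 1 lower without clone 1 replicate 2), with a median of 0.481. *Cx3cl1*, the membrane-bound chemokine fractalkine, was at 387, 385 and 380 CPM in clone 1 and at 75.8, 74.3 and 76.4 CPM in clone 2 (log2 fold change 2.35, SE 0.06, adjusted p = 6.12e-23), beside a WT mean of 368 CPM. *Ccl7*, a monocyte attractant, was at 60.3, 60.7 and 58.4 against 20.3, 21.2 and 18.9 CPM (1.57, adjusted p = 4.22e-06), where WT had 4.57 CPM. In both cases the libraries of the clones lay far apart. *Tnfaip6*, an inflammation-induced hyaluronan-binding protein (1.71, adjusted p = 1.04e-13), and *Ccl5*, a T cell attractant (1.59, adjusted p = 4.62e-05), were higher as well. Of complement and acute phase genes, 5 of 26 were higher and 1 lower (0 lower without clone 1 replicate 2 or clone 2 replicate 3, 2 without clone 1 replicate 3 and 3 without clone 2 replicate 2). They included *Orm1* (1.29) and *Orm2* (1.15), encoding plasma acid glycoproteins, and *Serpina3f* (1.24) and *Serpina3g* (1.03), encoding protease inhibitors, each pair being close copies between which reads may have been split. *Serpina3g* was inside the fold limit without clone 1 replicate 1 (0.91) or clone 2 replicate 2 (0.92).

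**Figure D2:**
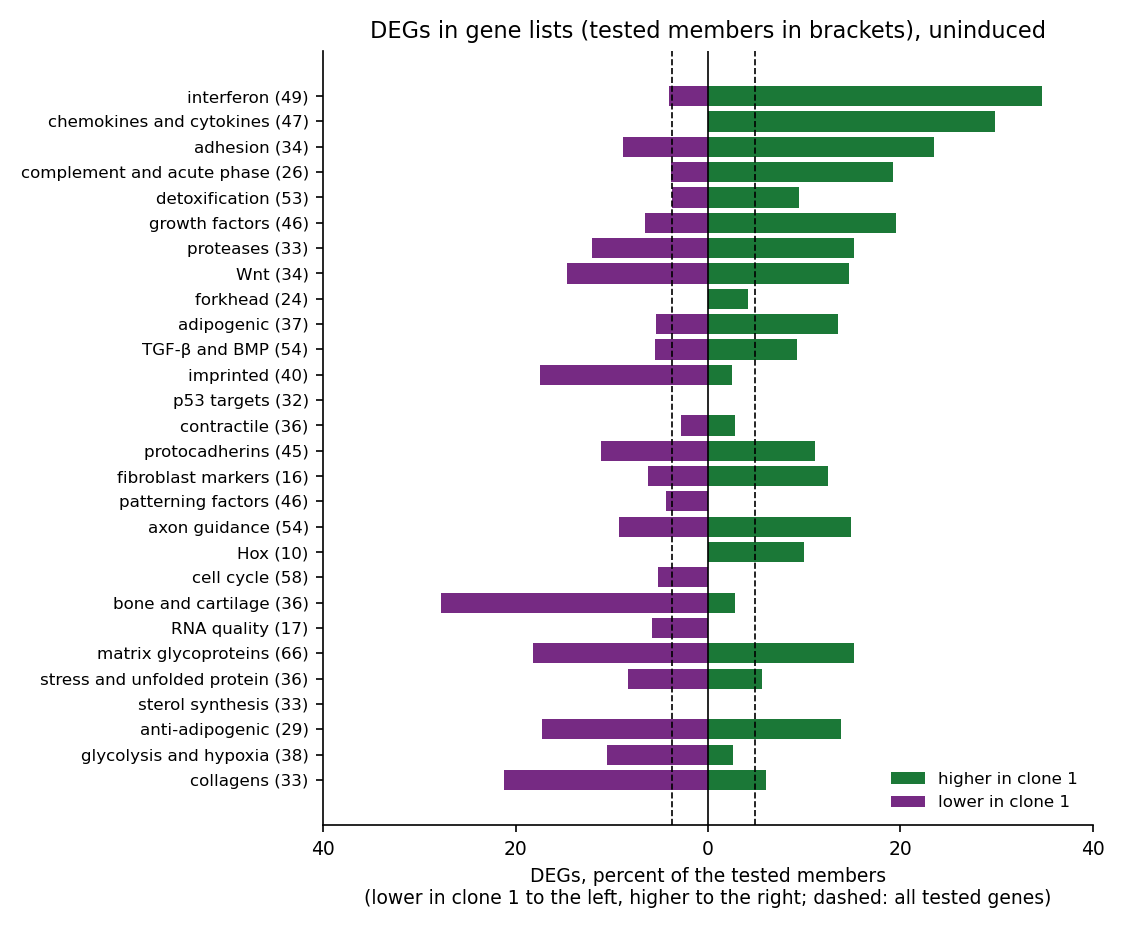
Share of the tested members of gene lists that were DEGs in uninduced cells, in percent, with genes lower in clone 1 to the left and higher to the right. Lists with 10 or more tested members are shown, without the markers of other cell types and the 6 cyclin dependent kinase inhibitors. The number of tested members stands in brackets, lists are ordered by median log2 fold change, and the dashed lines are the shares among all tested genes (3.78% and 4.89%); the interferon list (17 of 49) and the chemokine and cytokine list (14 of 47) reach farthest to the right, and bone and cartilage genes (10 of 36) farthest to the left.

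Genes of the extracellular matrix differed in both directions. Of 66 matrix glycoprotein and proteoglycan genes, 10 were higher and 12 lower in clone 1. *Tgfbi*, a TGF-β-induced adhesion protein, had 3 counts in clone 1 against 674 in clone 2, a ratio of 152 (51.9 to 741), where WT had a mean of 246 CPM. *Matn4*, a cartilage matrix adaptor, was at 5.17, 5.10 and 5.59 CPM in clone 1 and at 127, 119 and 125 CPM in clone 2 (log2 fold change −4.54, SE 0.09, adjusted p = 6.43e-26). *Mfap5*, a microfibril protein, went the opposite way with 15.7, 16.1 and 14.8 CPM against 0.156, 0.221 and 0.058 CPM (6.61, SE 0.22, adjusted p = 2.92e-20). None of these 3 overlapped between the clones. The elastic fibre genes *Eln* (2.79), *Fbn1* (1.15) and *Fbn2* (1.66) were higher as well, at mean levels of 103, 962 and 243 CPM in clone 1. *Emilin2* (−3.08), *Loxl2* (−1.25) and *Loxl4* (−1.07), of the same list, were lower. Both sets were named after their values were seen.

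Collagen genes were more often lower in clone 1, 7 of 33 tested against 2 higher (5 to 7 lower with a library left out), with a median of −0.409. Only 2 of these 9 DEGs, *Col2a1* and *Col9a1*, reached a mean of 5 CPM in the higher clone. *Col2a1*, the fibrillar collagen of cartilage, was at 400.3, 416 and 389.7 CPM against 1040.2, 1060.3 and 989.8 CPM (−1.36, SE 0.05, adjusted p = 1.23e-18), and *Col9a1*, which coats its fibrils, at 10.9, 12.7 and 12.7 against 45.6, 51.4 and 47.2 CPM (−1.99, SE 0.12, adjusted p = 5.09e-14). The libraries were separate for both. The most abundant collagens stayed inside the 2-fold limit, with *Col1a1* at −0.32 (adjusted p = 1.57e-07) and *Col3a1* at 0.18 (adjusted p = 0.000139), and fibronectin, *Fn1*, at −0.84 (adjusted p = 2.08e-05). Of 36 bone and cartilage genes, 10 were lower and 1 higher (8 to 11 lower with a library left out), with a list median of −0.0818. Besides the collagens, *Dmp1*, a dentin and bone matrix protein (−1.54, adjusted p = 1.75e-05), and *Phex*, a phosphate-regulating peptidase (−1.16, adjusted p = 2.00e-07), were lower. *Col10a1*, the collagen of hypertrophic cartilage, was the higher one (3.37), at 1.23 and 0.089 CPM. Matrix proteases and inhibitors were split as 5 higher and 4 lower of 33, among them *Plat*, tissue plasminogen activator (1.44), *Mmp16* (1.04), *Mmp11* (−1.12) and *Adamts14* (−2.01).

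Secreted signals differed strongly as well. *Rspo3*, which amplifies Wnt signalling at its receptor (chr10:29452416-29535867), was at 133, 132 and 126 CPM in clone 1 and at 0.781, 0.443 and 0.870 CPM in clone 2 (log2 fold change 7.51, SE 0.12, adjusted p = 2.06e-28), and another gene covers 13.1% of its exonic bases. Its level in WT was 58.7 CPM. The Wnt list held 5 higher and 5 lower genes of 34 (3 lower without clone 1 replicate 1, clone 1 replicate 2 or clone 2 replicate 1). The secreted Wnt antagonists *Sfrp2* (14.45, 17.97 and 15.85 against 1.16, 1.20 and 1.16 CPM, difference 3.77) and *Sfrp1* (1.64) were higher in clone 1, as was *Frzb*, a further antagonist (1.85), whereas *Notum*, a secreted enzyme that inactivates Wnt proteins, was lower (−2.36, under 1 CPM in both clones). *Wnt5a* (−3.17), *Wnt6* (−2.53) and *Nkd2* (−2.48) were lower as well, all under 1 CPM, and with *Fzd9* above make up the 5 lower genes. *Lef1*, the remaining higher gene of the list, had means of 13.8 CPM in clone 1 and 5.91 CPM in clone 2 (1.21). *Lef1* and the members of the list under 5 CPM are named after their values were seen. The clones did not overlap at *Sfrp2* or *Sfrp1*, and both clones were far below their WT means of 246 and 143 CPM.

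Of 46 growth factor genes, 9 were higher and 3 lower. *Igf1*, insulin-like growth factor 1, was at 36.2, 38.9 and 41.8 CPM in clone 1 against 4.595, 3.277 and 3.884 CPM (3.27, SE 0.11, adjusted p = 1.42e-19). *Igfbp5*, a binding protein for such factors, was at 0.768, 0.805 and 0.984 CPM against 46.4, 42.9 and 45.0 CPM (−5.71, SE 0.17, adjusted p = 2.59e-21). The libraries of the clones did not overlap at either gene. Other binding protein genes of the list, named after their values were seen, went both ways, with *Igfbp4* (−1.18) and *Igfbp6* (−1.67) lower and *Igfbp3* (3.42) and *Igfbp2* (0.104 CPM, without a count in clone 2) higher in clone 1. Of 54 TGF-β and BMP genes, 5 were higher and 3 lower, with *Lrrc32*, which holds latent TGF-β at the cell surface, at 9.43, 12.0 and 8.70 against 0.602, 0.576 and 0.290 CPM (4.26, SE 0.27, adjusted p = 1.34e-13). The co-receptor gene *Eng* was higher (1.24, adjusted p = 3.60e-16) and *Id2*, a BMP target that blocks basic helix-loop-helix factors, lower (−1.07, adjusted p = 7.00e-11).

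The surface molecules were led by *Thy1*, a glycolipid-anchored surface protein used as a fibroblast marker (chr9:44043384-44048579), which was at 187, 192 and 174 CPM in clone 1 and at 0.625, 0.354 and 0.870 CPM in clone 2, with no overlap (log2 fold change 8.24, SE 0.12, adjusted p = 5.64e-29, the smallest adjusted p of the genes named here). WT cells had 59.6 CPM. The other fibroblast markers that differed were *Eng* and *Lum*, the collagen-binding proteoglycan lumican (−1.44, adjusted p = 1.04e-12). *Pdgfra*, a receptor of mesenchymal progenitors, differed by −0.34 (adjusted p = 1.46e-06), inside the fold limit. Of 34 adhesion genes, 8 were higher and 3 lower. The neural adhesion molecule gene *L1cam* (37.9, 37.6 and 33.4 against 5.89, 4.47 and 5.97 CPM, difference 2.73), *Itga1* (2.00) and *Itga8* (2.25) were higher, the last 2 encoding integrin α chains, and *Itgb8*, an integrin β chain that activates latent TGF-β, was lower (−3.70).

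Axon guidance genes were 8 higher and 5 lower of 54, with the ephrin gene *Efnb2* (2.36), the plexin gene *Plxnb3* (1.81) and the Eph receptor gene *Ephb6* (1.35) higher and the semaphorin gene *Sema5a* lower (−1.38). Protocadherin genes, homophilic adhesion molecules of which cells choose different members, were 5 higher and 5 lower of 45 (3 higher without clone 2 replicate 3). *Pcdh1* was at 2.00, 1.07 and 2.49 CPM against 53.2, 49.2 and 51.9 CPM (−4.79, SE 0.23, adjusted p = 2.74e-13), while WT had 5.75 CPM. Of the clustered members, *Pcdhb11* was lower (−1.87), *Pcdhgb2* higher (1.23) and *Pcdhga2* lower (−1.16), and the last 2 share 43.4% and 45.1% of their exonic bases with other genes, so that their counts are uncertain. *Pcdhga2* dropped inside the fold limit without clone 1 replicate 3 (−0.96) or clone 2 replicate 3 (−0.97).

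Of 37 adipogenic genes, 5 were higher and 2 lower in clone 1 before induction (18.9%, beside 8.67% of all tested genes), and 1 and 1 without the library with liver counts. The higher genes were 1 without clone 2 replicate 1, 2 without clone 2 replicate 2 and 3 without clone 2 replicate 3, and the lower ones 1 without clone 1 replicate 1 or clone 2 replicate 1 or 2. *Pparg*, the master regulator of fat cell formation, was at 38.8, 39.5 and 33.2 CPM in clone 1 and at 36.8, 40.3 and 37.9 CPM in clone 2 (−0.04, SE 0.09, adjusted p = 0.738). The early regulators *Cebpb* (0.02, SE 0.06, adjusted p = 0.831) and *Cebpd* (−0.03, SE 0.06, adjusted p = 0.770) overlapped likewise, and 20.7% and 15.0% of their exonic bases lie under other genes. *Cebpa*, which sustains *Pparg*, was at 55.0, 56.4 and 61.8 CPM against 27.9, 29.0 and 26.1 CPM, with no overlap (1.06, SE 0.07, adjusted p = 1.02e-13). *Lpl*, lipoprotein lipase, was at 0.205, 0.215 and 0.414 against 5.06, 5.14 and 6.55 CPM (−4.28, SE 0.33, adjusted p = 6.14e-12). Thus 1 regulator was higher and 1 lipid enzyme lower in every clone 1 library.

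Other fat cell genes were at or near the limit of what the counts can show. *Apoe*, an apolipoprotein, was at 1.38, 0.858 and 40.1 CPM in clone 1 and at 1.41, 1.28 and 2.15 CPM in clone 2, where the call (3.18, adjusted p = 0.0293) rested on replicate 3 and the difference turned to −0.48 (adjusted p = 0.308) without it. *Adipoq*, adiponectin, was lower in clone 1 (0.102, 0.268 and 0.207 against 1.00, 0.930 and 0.928 CPM, −2.28, adjusted p = 0.0232), a call lost without clone 1 replicate 1 (adjusted p = 0.108) or 3 (0.065) and without clone 2 replicate 1 (0.0688) or 2 (0.0503). The fatty acid carrier gene *Fabp4* differed by −0.51 (SE 0.39, adjusted p = 0.318), the lipid droplet gene *Plin2* by −0.18 (adjusted p = 0.00140) and *Stat5a*, an inducer of *Pparg*, by −0.31 (adjusted p = 0.000299). Of 29 genes that restrain adipogenesis, 4 were higher and 5 lower (31.0% in all, 3 lower without clone 2 replicate 1). *Gata2* was higher (1.39), whereas *Ddit3* and *Trib3*, stress-induced inhibitors, were at 26.9, 23.5 and 22.9 against 85.3, 82.4 and 78.7 CPM and at 21.9, 21.6 and 22.6 against 71.18, 82.99 and 68.93 CPM (−1.75 for each).

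Of 36 contractile genes 1 was higher and 1 lower, and 2 were higher without clone 1 replicate 3 and 0 lower without clone 2 replicate 1. *Acta2*, smooth muscle α-actin, was at 415, 414 and 426 CPM in clone 1 and at 195, 199 and 186 CPM in clone 2 (1.12, SE 0.05, adjusted p = 7.06e-17), on either side of the WT mean of 274 CPM. *Tagln* was under 1 CPM in all 6 libraries (adjusted p = 0.213), with 67.9% of its exonic bases under other genes, and *Postn*, a matricellular protein of activated fibroblasts, differed by −0.14 (adjusted p = 0.0385).

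Imprinted genes, expressed from 1 parental copy, held 7 lower and 1 higher of 40 (2 higher with any 1 of the 6 libraries left out). *Mest* was at 0.871, 1.29 and 1.40 CPM in clone 1 and at 53.1, 51.5 and 47.5 CPM in clone 2 (−5.42, SE 0.15, adjusted p = 3.29e-16), with 23.1% of its exonic bases under other genes, and WT had 953 CPM. *Plagl1*, a zinc finger regulator, was at 0.410, 0.322 and 0.466 against 10.7, 10.3 and 14.7 CPM (−4.86, SE 0.29, adjusted p = 1.98e-14). The clones were far apart at both, as at *Ndn*, and the median of the list was 0.0787. Of 938 transcription factor genes, 33 were higher and 37 lower (7.46%). The patterning factors held 0 higher and 2 lower of 46, the Hox genes 1 higher of 10 (2 without clone 1 replicate 2 or clone 2 replicate 1) and the forkhead genes 1 higher of 24, which was *Foxp2*. Of 1008 long noncoding genes 122 were DEGs (12.1%; 90 higher and 32 lower), beside 8.70% of 12360 protein coding genes, a difference that was not tested. The largest differences among genes that the annotation types as noncoding, at 5 CPM or more, were *A830019P07Rik* (−2.27), *Trerf1* (−1.58) and *Snhg12* (−1.26) below and *Fam120aos* (1.65), *C230034O21Rik* (1.62) and *BC039966* (1.43) above, of which *C230034O21Rik* and *Snhg12* share 42.6% and 19.6% of their exonic bases with other genes.

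Of 58 cell cycle genes, 0 were higher and 3 lower (5.17%, beside 8.67% of all tested genes): *Ccnd2* (cyclin D2, −1.15, adjusted p = 5.60e-16), *Cenpf* (−1.12, adjusted p = 7.30e-05) and *Cenpe* (−1.04, adjusted p = 2.41e-05), the last 2 being kinetochore proteins. *Cenpe* lay inside the fold limit without clone 1 replicate 3 (−0.94) or clone 2 replicate 3 (−0.96). No p53 target of 32 and no cyclin dependent kinase inhibitor of 6 was a DEG. *Cdkn1a* differed by 0.16 (adjusted p = 0.0216), and *Cdkn2a*, the gene of the inhibitor p16, had no count in any of the 6 libraries and a mean of 32.9 CPM in WT. Sterol synthesis genes held no DEG among 33 (median −0.208), and stress and unfolded protein genes 2 higher and 3 lower of 36 (13.9%, and 1 higher without any 1 of these libraries except clone 1 replicate 1).

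Glycolysis and hypoxia genes were 1 higher and 4 lower of 38 (median −0.333). *Pfkl*, phosphofructokinase, was at 82.0, 74.8 and 77.0 against 181, 190 and 195 CPM (−1.28, SE 0.05, adjusted p = 1.83e-18), *Ldhb*, lactate dehydrogenase B, was also lower (−1.73), and the hypoxia factor gene *Epas1* was higher (1.40). Detoxification genes were 5 higher and 2 lower of 53, with *Gstt3*, a glutathione transferase (4.84), *Aldh1a1*, a retinal dehydrogenase (1.85), and *Mgst1* (1.58) higher and *Cbr1*, a carbonyl reductase, lower (−3.58). Of the lists that check the cells, 3 endothelial genes gave 1 lower, 1 epithelial gene 1 lower, 6 neural or glial genes 1 higher and 2 lower (1 lower without clone 1 replicate 1 or 3 or clone 2 replicate 1 or 2, *S100b* at −1.24), and 2 immune genes and 1 muscle gene no DEG. The RNA quality list gave 1 of 17, *mt-Atp6*, a subunit of ATP synthase. It rested on clone 2 replicate 1 (94.96 against 20.59 and 28.99 CPM in the other clone 2 libraries), and its −1.25 (adjusted p = 0.0435) became −0.25 (adjusted p = 0.469) without that library. The call was also lost without any single clone 1 library (adjusted p = 0.0953 to 0.112), and without clone 2 replicate 2 the list held 2 lower genes and without clone 1 replicate 1 or clone 2 replicate 3 it held 1 higher one.

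The difference between the clones had a different median on different chromosomes. Over 10040 genes whose mean reached 5 CPM and whose median log2 fold change was −0.00775, the genes of chromosome 10 were lower in clone 1 by a median log2 fold change of −0.46, and 91.5% of its 518 genes lay below 0. Chromosome 12 (−0.40), chromosome 1 (−0.333), chromosome 16 (−0.259) and chromosome 19 (−0.162) were lower too, and chromosome 13 (0.385), chromosome 17 (0.308) and chromosome 2 (0.221) higher. The other 12 medians lay between −0.0496 and 0.0692. Of these, chromosome 11 (0.0692) was uneven along its length when its genes were taken in consecutive blocks. From *Msl1* to *Metrnl* (chr11:98795516-121716306) its block medians were 0.157 to 0.302 uninduced and 0.15 to 0.332 in stimulated cells. Its blocks before *Msl1* had uninduced medians of −0.0657 to 0.106. That stretch was picked after the values were seen, and its cause was not tested. For each library the median deviation of a chromosome's genes from the mean of the 6 libraries was taken on log2(CPM + 0.5). On chromosome 10 it was −0.221, −0.224 and −0.241 in clone 1 and 0.236, 0.218 and 0.226 in clone 2. On chromosome 13 it was 0.188, 0.189 and 0.191 in clone 1 and −0.171, −0.187 and −0.195 in clone 2. The libraries of the clones did not overlap on 12 of the 20 chromosomes, each with an exact two-sided permutation p of 0.1, the smallest that 3 against 3 libraries allow.

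**Figure D3:**
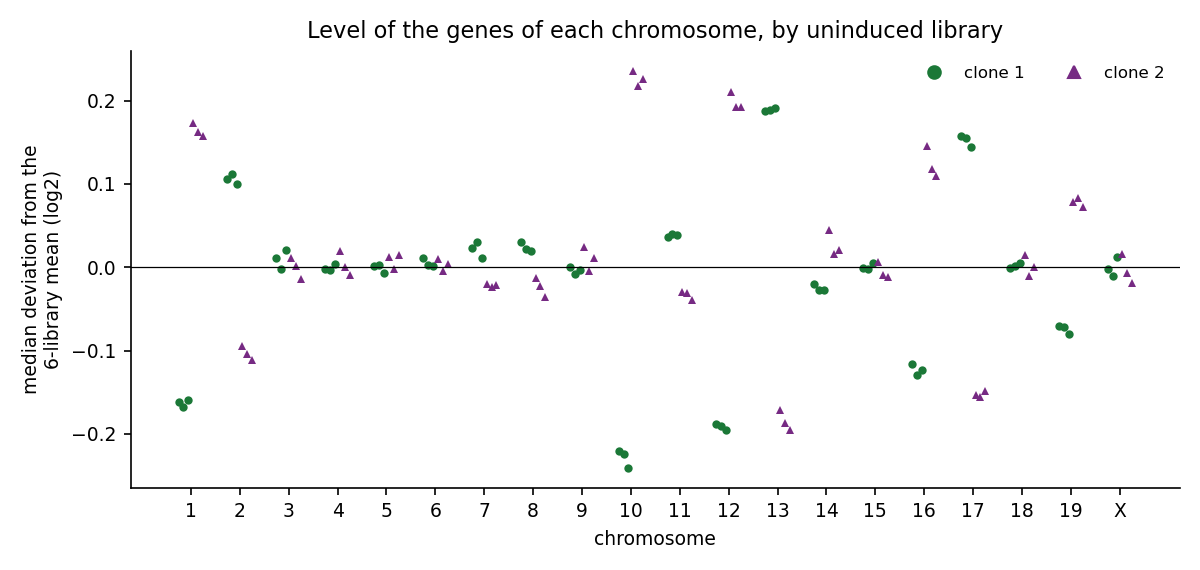
Median deviation of the genes of each chromosome from the mean of the 6 uninduced libraries, on log2(CPM + 0.5), for genes whose mean reached 5 CPM. Each point is 1 library, circles for clone 1 and triangles for clone 2; the clones stand clearly apart on chromosomes 1, 2, 10, 12, 13, 16, 17 and 19, with libraries of a clone close together.

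Set beside WT, the same chromosomes differed in which clone departed. The median was −0.409 for clone 1 and 0.0732 for clone 2 on chromosome 10, −0.221 and 0.0909 on chromosome 1, and 0.186 and −0.040 on chromosome 2, both comparisons using the same WT libraries. On chromosome 13 it was 0.0928 and −0.246, on chromosome 12 −0.190 and 0.197, on chromosome 17 0.156 and −0.152, and on chromosome 16 0.123 and 0.393. The genes of chromosome 15 were at 0.459 and 0.456 in the clones relative to WT and thus at −0.00777 between them.

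Within chromosomes, the scan over 9660 windows of 20 neighbouring genes had medians of up to 0.988 on chromosome 13 and down to −1.20 on the X chromosome. Windows past an absolute median of 0.7, a limit set after the windows were seen, made up 3 stretches. On chromosome 13, 60 genes from *Mrps27* to *Zfp131* (chr13:99344786-119790889) had a median of 0.853, 55 of them positive, against 0.337 for the other genes of that chromosome. Those other genes were uneven, with block medians of −0.0142 and −0.0396 from *Gm9616* to *Tdp2* and of 0.274 to 0.495 from *Mrs2* to *Ptcd2*. The 60 genes include *Itga1* (74.7, 73.2 and 69.3 against 17.9, 16.9 and 19.9 CPM), the lactate transporter partner *Emb* (2.34), the splicing-associated *Ppwd1* (1.61) and the mitochondrial ribosomal protein genes *Mrps36* (1.27) and *Mrps30* (1.12). On the X chromosome, 58 genes from *Pgk1* to *Tsr2* (chrX:106187100-151096543) had a median of −0.963, 47 of them negative, against 0.0385 for the other genes there. *Tsc22d3*, a glucocorticoid-induced leucine zipper protein, was at 6.35, 8.64 and 8.49 against 35.8, 33.1 and 32.3 CPM (−2.11), *Armcx6* differed by −3.78, *Morc4* by −2.63 and *Srpx2* by −1.72. The libraries of the clones did not overlap at 49 of the 58 genes, beside 55.5% of all tested genes. *Rtl3*, a retrotransposon-derived gene, was among the 2 DEGs of the stretch that were higher (1.22), against 26 that were lower. Such counts of signs, overlaps and DEGs partly follow from the choice of the stretches by their medians in the same libraries. Relative to WT the X stretch was at −0.719 in clone 1 and 0.206 in clone 2. On chromosome 10, 21 genes from *P4ha1* to *Gm5424* (chr10:59323296-62072362) had a median of −0.765, all 21 negative, against −0.453 for the other genes of the chromosome. They include *H2afy2*, a macroH2A histone variant, at 1.18, 2.68 and 1.19 against 37.7, 37.9 and 44.2 CPM (−4.57). The third highest window, on chromosome 17 from *Znrd1* to *Tmem63b*, had a median of 0.605 uninduced and 0.324 in stimulated cells.

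**Figure D4:**
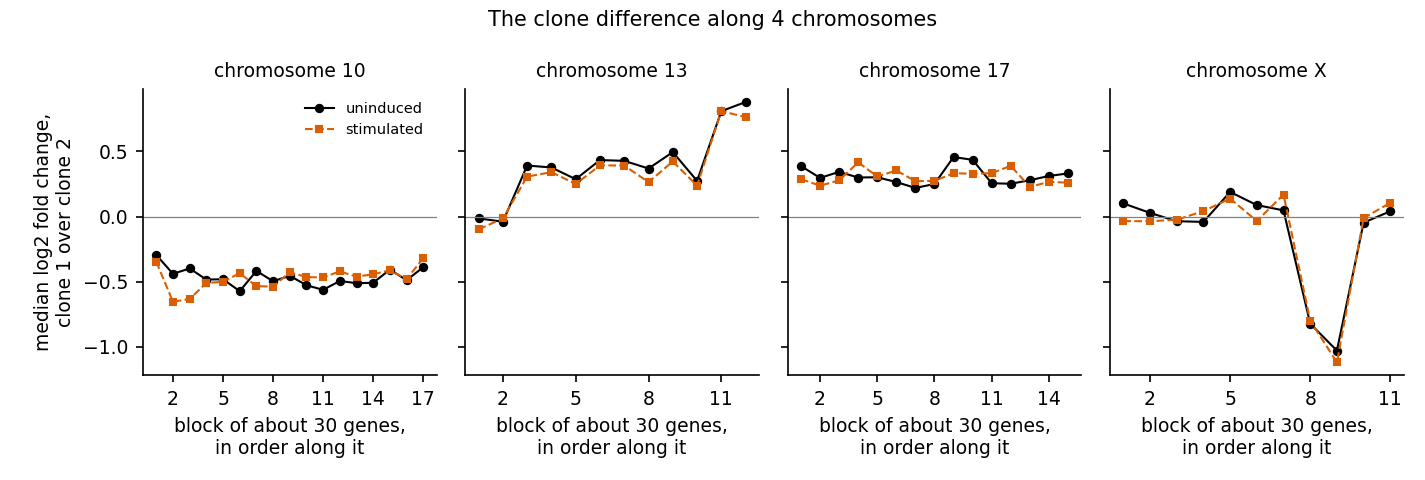
Median log2 fold change of clone 1 over clone 2 in consecutive blocks of about 30 genes along chromosomes 10, 13, 17 and X, in gene order, for uninduced (solid line, circles) and TGF-β1 + DMII stimulated cells (dashed line, squares). Chromosomes 10 and 17 are displaced along their whole length, chromosome 13 climbs to 0.81 and 0.88 in its last 2 blocks, and the X chromosome stays near 0 except for 2 blocks at −0.823 and −1.03.

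The stimulated libraries gave the same comparison of the same clones, in libraries that the uninduced contrast did not compare. They shared 1 fit with the uninduced libraries, and thus its gene filter, scaling and dispersions. There, 1429 genes (9.98%) were DEGs, 787 (5.5%) higher and 642 (4.48%) lower in clone 1. Of the uninduced DEGs, 745 had the same call, which is 60% of the uninduced and 52.1% of the stimulated DEGs, and 10 had the opposite call. Of the 72 near silent genes, 69 were DEGs in the same direction, and 42 met the rule of near silence in stimulated cells too (14 of 26 in clone 1 and 28 of 46 in clone 2). Chromosome medians differed between the states by at most 0.073, and the stretches on chromosomes 13 and X had medians of 0.788 and −0.993. The stretch on chromosome 10 was at −0.504, where it had been at −0.765 without stimulation, and the whole chromosome was at −0.487. *Thy1* differed by 8.86 and *Rspo3* by 7.20 in stimulated cells, close to the 8.24 and 7.51 without stimulation. *Igf1* (2.53), *Igfbp5* (−4.93), *Mest* (−5.82), *Pfkl* (−1.27) and *Col2a1* (−1.09) also remained DEGs.

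At other genes the clone difference changed with stimulation. Values of the change are the uninduced minus the stimulated log2 fold change of clone 1 over clone 2. A negative value thus means that clone 1 stood relatively higher after stimulation. The change of the clone difference with stimulation was itself called at 433 genes (3.02%), with a positive change at 1.48% and a negative one at 1.54% of tested genes, 169 of them uninduced DEGs. The interferon list had 6 higher and 3 lower genes in stimulated cells (median 0.254), and the chemokine and cytokine list 4 higher and 8 lower (median −0.312). *Acta2* was at a mean of 308 and 323 CPM in stimulated clones 1 and 2, a difference of −0.07 where it had been 1.12 (change 1.19, SE 0.07, adjusted p = 5.73e-13). *Ccl7* went from 1.57 to −0.83 (change 2.40, adjusted p = 8.10e-06). Opposite calls in the states were found for *Ereg*, an epidermal growth factor receptor ligand (9.84 and 4.31 CPM uninduced, 108 and 291 CPM stimulated), *Ahr*, the dioxin receptor (5.67 and 1.99, then 6.52 and 14.1 CPM), *Rtl3*, *Cntnap5b*, *Gbp2b*, *Fbp1*, *Cited1*, *Gda*, *Ngfr* and *Smim5*. These 10 were named after their values were seen. The adipogenic list had 13 higher and 1 lower in stimulated cells. *Cebpa* was at 118 and 24.0 CPM in stimulated clones 1 and 2 (change −1.24, adjusted p = 7.12e-11) and *Fabp4* at 20.4 and 3.16 CPM (change −3.20, adjusted p = 1.36e-05). Differences in list counts between the states were not tested.

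**Figure D5:**
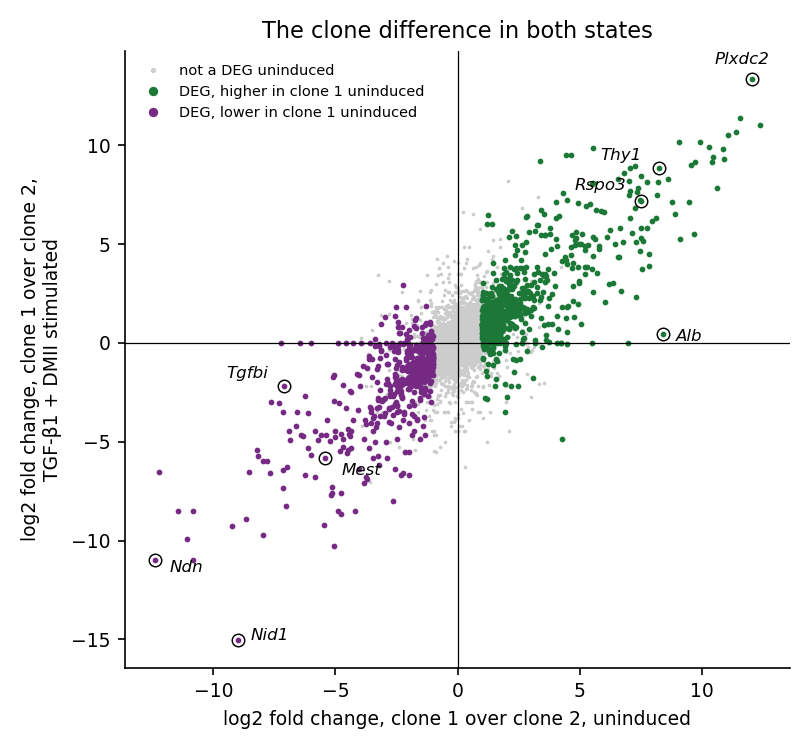
Log2 fold change of clone 1 over clone 2 in uninduced cells (x axis) and in TGF-β1 + DMII stimulated cells (y axis) for the 14317 tested genes, each axis from different libraries of the clones. Colours mark uninduced DEGs and rings mark labelled genes; most large differences, such as *Thy1*, *Rspo3*, *Plxdc2*, *Ndn* and *Mest*, lie near the diagonal, while *Alb*, which rested on 1 library, lies on the axis at 8.43 uninduced.

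Uninduced WT cells gave a reference level. The WT mean lay between the clones for 546 of the 1241 DEGs, above both for 495 and below both for 200, and on log2(CPM + 0.1) it was nearer to clone 1 for 608 and nearer to clone 2 for 633. Among DEGs higher in clone 1, WT was nearer clone 1 for 432 of 700, and among those lower in clone 1 it was nearer clone 2 for 365 of 541. At *Cx3cl1* and *H2-T23* the WT means of 368 and 53.5 CPM were close to clone 1, and at *Fzd9* and *Marcksl1* the WT means of 43.0 and 146 CPM exceeded both clones.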

How the data were processed

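Counts per gene were analysed as the authors deposited them, from poly(A) RNA sequenced as paired 150 bp reads and mapped with HISAT2 to GRCm38 (mm10). For the counting program, the annotation release and strandedness, the sources used here give nothing. All 18 libraries of 6 groups entered 1 fit in edgeR 4.0.16 (R 4.3.3): filterByExpr with a minimum count of 10, TMM scaling, glmQLFit (robust) and glmQLFTest, tested on simulated data. Genes were called DEGs at more than 2-fold with p adjusted by Benjamini-Hochberg under 0.05. The fold limit and adjusted p follow the study, which used DESeq2. SEs were derived from F. Total counts were 15576685 to 42005596 per library, so that 3 counts over the 3 libraries of a clone are 0.0522 (clone 1) or 0.0354 CPM (clone 2). Intervals and floors cover counting error only.

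Members and lists were chosen with earlier results of these data known. Named were *Foxs1* and its neighbours within 100 kb, the 5 highest near silent genes per direction and 17 preset genes. The 10 largest rises and falls were those among DEGs with a mean of at least 5 CPM in the higher clone. Their libraries were also required not to overlap between the clones. Also named were up to 4 DEGs per list and 3 noncoding DEGs per direction at that level. Further picks were the 5 largest changes with stimulation per direction and 5 genes per extreme window. Other list members, among them *Ifit1*, *Tap1*, *Ifih1*, *Stat2*, *Psmb8*, *Eln*, *Fbn1*, *Fbn2* and *Col10a1*, were named after their values were seen. Coordinates and overlaps came from GENCODE M21, whose coordinates were identical for 96.16% of 14305 genes found. Alternatives were DESeq2 1.42.0, its size factors, other filters, no or a tested fold limit (limma 3.58.1 supplied routines), thinning, fewer libraries and a replicate block. The liver genes and the limit of 0.7 for windows were chosen after values were seen. Python 3.11.15 and matplotlib 3.10.9 made tables and figures.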

Additional observations from a re-analysis of the deposited data

Results flagged for a closer look

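The clone difference changed with stimulation, by an adjusted p below 0.05 and more than 2-fold in edgeR's quasi-likelihood test of the change, at 39 of the 148 genes named by the rule. The rule itself picked 10 of them for their change and most others as DEGs, so this share is not to be read against that of all genes. Values are the uninduced minus the stimulated log2 fold change of clone 1 over clone 2, so that a positive value means that clone 1 stood relatively higher before stimulation.

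Among members of the interferon and the chemokine and cytokine lists, *Isg15* changed by 3.00 (means of 7.80 and 0.243 CPM uninduced, 0.649 and 0.166 CPM stimulated), *Iigp1* by 2.67, *H2-T23* by 1.31, *Ccl7* by 2.40 and *Tnfaip6* by 2.21. *Serpina3g*, of the complement and acute phase list, changed by −1.39. Among adhesion and matrix genes the change was 3.16 for *Itgb8*, 3.07 for *Itga8*, 2.78 for *Pcdh1*, 2.26 for *Mfap5*, 1.20 for *Mmp16*, 1.17 for *Sema5a*, 1.59 for *Efnb2*, 1.24 for *Dmp1* and 1.00 for *Matn4*, and it was −1.24 for *Lum*, which dropped to 0.467 and 0.537 CPM in stimulated clones 1 and 2. *Acta2* changed by 1.19.

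Of the adipogenic list, *Fabp4* changed by −3.20 and *Cebpa* by −1.24, and of the TGF-β and BMP list *Id2* by −1.36. *Emb* (−2.59), *Scrn1* (−2.79), *Plagl1* (−1.80), *H2afy2* (−1.26), *Cenpe* (−1.25) and *Tpx2* (−1.09) also had negative values, so clone 1 stood relatively higher after stimulation. *Rtl3* (2.89) changed sides, being a DEG in opposite directions in the states. The noncoding *C230034O21Rik* changed by 1.18 and *CT010467.1* by 1.17, and both share exonic bases with other genes.

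The widest changes came from genes with few or no counts in 1 group, whose fitted values depend on the prior count and are no bounds. With 0 counts in stimulated clone 1 they were *Nid1* (6.02, where stimulated clone 2 had 9562 counts), *Ptgr2* (5.18), *Tinagl1* (4.36), *Gm48197* (4.74) and *Peg3* (6.55, which had at most 0.259 CPM in any of the 6 uninduced libraries). With 0 counts in stimulated clone 2 they were *Stc1* (−5.83), *Uba7* (−5.27) and *Ccdc8* (−4.88). *Thbs2* (−5.09) had 1 count in stimulated clone 2 against 1298 in stimulated clone 1, and *Tgfbi* (−4.91) had 3 counts in uninduced and 6 in stimulated clone 1.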

How the results depend on the processing

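The calls rested most on the fold limit. Without it, 6039 genes differed between the clones uninduced, 6500 stimulated and 2069 in the change, and the DEGs of the same direction uninduced and stimulated were 4049. Tested against the limit itself (glmTreat), the counts were 542, 643, 89 and 343, which is fewer by construction. The DESeq2 Wald test gave 1265, 1496 and 475 DEGs uninduced, stimulated and in the change, its size factors 1241, 1433 and 433, no filter beyond 1 count 1354, 1481 and 477, a filter of 1 CPM 1122, 1329 and 429, thinning to the smallest total 1177, 1342 and 398, and a fit of only the 6 libraries compared 1170 and 1261. None of these scalings moved the median of all genes by more than 0.00834.

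With a library left out, the counts were 1135 to 1199 uninduced, 1325 to 1390 stimulated and 384 to 429 for the change, 688 to 738 genes were shared by both states, and 890 of the 1241 uninduced DEGs and 111 of 118 named DEGs held in all 6. The direction of *Apoe* reversed to −0.48 without clone 1 replicate 3, the other values being 3.06 to 3.72. With a library left out, the values were 0.209 to 0.221 for the chromosome medians, chromosome 2, −0.415 to −0.397 for the chromosome medians, chromosome 12, and 0.36 to 0.389 for the chromosome medians, chromosome 13. With genes of at least 1 CPM chromosome 1 was at −0.318 and chromosome 12 at −0.381. These moves exceed the very small spread between libraries, and the cause was not tested.

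The replicate numbers of the labels did not pair the libraries, the correlations of same-numbered deviations between the clones being −0.0112, 0.0092 and 0.0113 in uninduced cells. With replicate number as a block there were 1199 uninduced DEGs (1190 of the 1241), 1398 stimulated, 416 in the change and 734 in both states, and among named genes *Apoe* (2.40, adjusted p = 0.0768) and *mt-Atp6* (−1.16, adjusted p = 0.0840) lost their call. Depth limits genes under about 1 CPM.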
